A study of Mus musculus with 8 samples.

Results

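The genes described here are 9 components of type I interferon signalling: the ligand gene Ifnb1, the receptor chains Ifnar1 and Ifnar2, the kinase Jak1, the transcription factor Stat2 and the interferon regulatory factors Irf1, Irf3, Irf7 and Irf9. They were picked by name from the 49492 gene rows of an RNA-seq table, with the differences between genotypes in this pathway already known, so every value and call for them is a description and no p-value is given for them. The libraries came from embryonic fibroblasts (MEFs), connective tissue cells in culture, grown from mice whose gene for Pontin is floxed. Lentivirus added Flag-tagged Pontin, either wild type (WT) or with both methylated arginines changed to alanine (RA), hygromycin selected stable cells, and Cre virus deleted the endogenous gene. WT and RA MEFs were grown in normal or in glucose-free medium, with 2 libraries for each of the 4 groups, named WT normal, WT starved, RA normal and RA starved. All 4 groups therefore share the floxed background, the viral Flag-tagged Pontin and the Cre deletion. The length of starvation for these libraries is not given in the sources used here. Each genotype is 1 stable line, so the line and the Pontin form cannot be told apart, and nothing in the labels says that replicates are separate cultures, so the errors measure the spread between these libraries only.

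Type I interferons such as interferon beta are secreted proteins that bind a receptor made of the Ifnar1 and Ifnar2 chains. The receptor-bound kinases Jak1 and Tyk2 then phosphorylate STAT proteins, and STAT2 joins IRF9 in the complex ISGF3, which binds interferon-stimulated response elements in the promoters of target genes. IRF3 is present before infection and, once phosphorylated after nucleic acid sensing, starts Ifnb1 transcription, whereas Irf7 is itself an interferon target whose product extends the response to many interferon genes. Fibroblasts make interferon beta and respond to it, which is how the molecule was first known as fibroblast interferon.

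Values are in CPM, read counts brought to a common total by means of a library size that the authors scaled. Between 43205841 and 56363034 reads were recovered per library, and both mates of a pair appear to have been counted. A level of 3 reads lay between 0.0548 and 0.069 CPM. Ruvbl1, which encodes Pontin, stood at 28.0 ± 0.58 CPM (SD, n = 2) in WT normal, 28.2 ± 0.38 in WT starved, 34.4 ± 3.4 in RA normal and 44.0 ± 1.5 in RA starved, and these reads do not separate the added forms from each other. All 9 fibroblast markers passed 1 CPM, and their summed level was 10007 to 10087 CPM in WT normal, 9918 to 10246 in RA normal, 5313 to 5406 in WT starved and 7042 to 7059 in RA starved. Of 10 leukocyte markers, 3 passed 1 CPM in any library (Csf1r, Cd68 and Cd14), the sum was at most 21.6 CPM in WT normal, 25.2 to 26.2 in WT starved, 24.1 to 24.9 in RA normal and at most 24.5 in RA starved, and Cd3e and Siglech were at 0 throughout. The summed level of 4 epithelial markers was 1.43 to 3.21 CPM and that of 4 endothelial markers was 2.02 to 9.43 CPM. The part of Ruvbl1 and of the fibroblast markers in the results below was not tested.

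The promoters of the members are shown because the response elements of this pathway lie in such regions. RefSeq gave 11 promoter windows for the 9 genes on GRCm38.p6, each of 300 bases with 250 before the start of transcription and 50 after it. Both strands were searched for the core of the interferon-stimulated response element (GAAANNGAA), the gamma-activated site bound by STAT dimers (TTCNNNGAA, which is a palindrome) and a shorter IRF core (AANNGAAA). Of 32851 RefSeq promoters of the same length, 8.56% held the first, 8.3% the second and 23.9% the third. The stretches with matches are printed 5′ to 3′ on the strand of the gene, with the matched letters in capitals. The Ifnb1 stretch (chr4:88522883-88522983, minus strand) holds 3 IRF core matches, the first beginning 159 bases before the start. The Stat2 stretch (chr10:128270248-128270315, plus strand) holds an ISRE core match on the opposite strand, beginning 221 bases before the start, and 2 IRF core matches overlap it. A gamma-activated site match begins 90 bases before the start of Irf1 (chr11:53769894-53769962), 5 bases before that of Ifnar1 (chr16:91485180-91485248) and 214 bases before that of Ifnar2 (chr16:91372539-91372607), all on the plus strand.
Ifnb1: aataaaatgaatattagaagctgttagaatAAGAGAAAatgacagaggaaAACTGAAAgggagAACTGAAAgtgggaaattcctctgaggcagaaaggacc
Stat2: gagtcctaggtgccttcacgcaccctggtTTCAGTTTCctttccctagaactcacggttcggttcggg
Irf1: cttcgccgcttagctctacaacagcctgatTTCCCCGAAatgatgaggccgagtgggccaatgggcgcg
Ifnar1: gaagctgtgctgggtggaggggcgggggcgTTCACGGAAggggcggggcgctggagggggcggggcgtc
Ifnar2: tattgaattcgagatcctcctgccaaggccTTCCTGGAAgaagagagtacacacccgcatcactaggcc

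The windows of Jak1, Irf3, Irf7 and Irf9 held none of these letters, and neither did a second window of Irf1, which says only that the letters are not within those 300 bases.

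Ifnb1 encodes interferon beta, the ligand of the pathway, and is a gene of 750 exon bases on the minus strand (chr4:88522025-88522774, GRCm38). It stood at 0.739 and 0.726 CPM in WT normal, 0.210 and 0.219 in WT starved, 2.07 and 2.29 in RA normal and 4.58 and 3.63 in RA starved. These values rest on 34 and 36, 10 and 12, 90 and 118, and 234 and 176 reads in the same order. Every RA library was above every WT library, the WT values were lower under starvation and the RA values were higher, and no groups overlapped. The RA mean was 2.97 times the WT mean in normal medium and 19.2 times under starvation. On the scale used for the fit, log2(CPM + 1), these differences were 0.87 (SE 0.13) and 2.07 (SE 0.13), and the added 1 shrinks them at such low levels. With edgeR on recovered reads they were 1.56 and 4.26. In WT the starved level was 0.293 times the normal one and in RA it was 1.89 times. Bulk RNA cannot tell fewer cells with a transcript from less transcript in each cell, which applies to every gene below.

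Of the 20 other interferon genes looked for, 6 had no reads in any library and 13 had between 1 and 50 reads in their highest library. The remaining gene was Ifna4, an interferon alpha gene, which had 8 and 14 reads in WT normal, 2 and 1 in WT starved, 49 and 46 in RA normal and 55 and 47 in RA starved. In normal medium its RA mean was 4.42 times its WT mean, and the 2 and 1 reads of WT starved are too few for a ratio. Ifna4 passed the filter on low values (at least 1 CPM in at least 2 libraries) only through RA libraries, with every WT value at or below 0.282 CPM, so its RA to WT differences are given with no p-value. Interferon alpha genes are near-identical copies, so the counting could have split their reads and the values are uncertain.

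**Figure D1:**
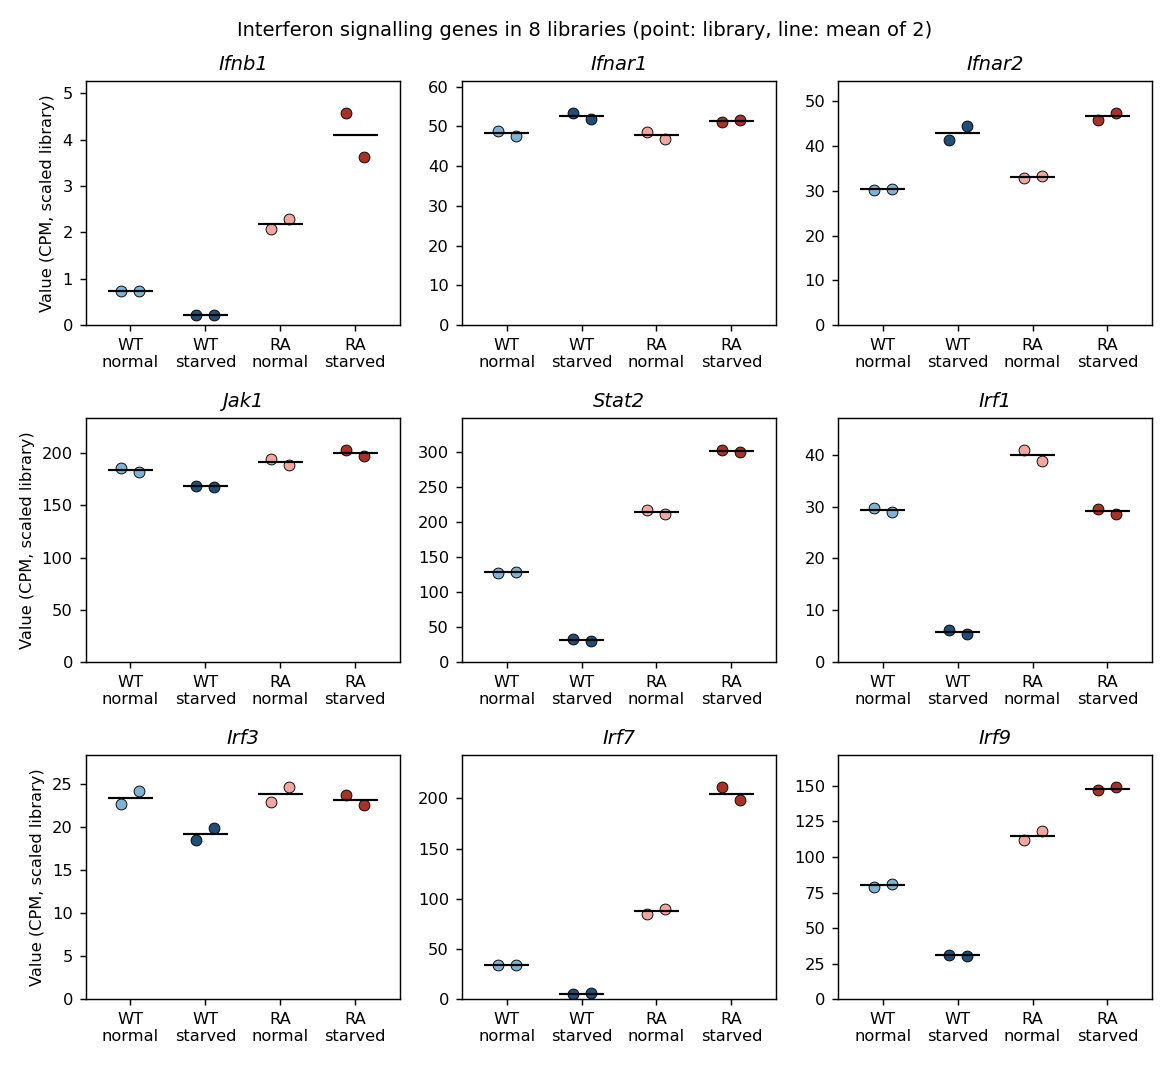
Expression values (CPM of the scaled library, y axis from 0) of the 9 interferon signalling genes in the 4 groups, with 1 point per library and a line at the mean of 2. Irf7 runs from 5.61 CPM in WT starved to 204 CPM in RA starved, while Ifnar1 stays between 46.8 and 53.4 CPM in all 8 libraries.

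Ifnar1, the receptor chain bound by Tyk2, lies on the plus strand at chr16:91485238-91507441 and was nearly level over the experiment. It stood at 48.8 and 47.7 CPM in WT normal, 53.4 and 51.9 in WT starved, 48.7 and 46.8 in RA normal and 51.1 and 51.7 in RA starved. The ratio of RA to WT was 0.989 in normal medium and 0.977 under starvation, and the normal libraries of both genotypes overlapped. Both genotypes had higher values under starvation, by 0.12 in WT and 0.11 in RA on the log2 scale (SE 0.048). The call in WT was lost with total-read scaling, with edgeR, with DESeq2, and without WT normal replicate 1, WT normal replicate 2 or WT starved replicate 1. The response of RA was called without RA normal replicate 1.

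Ifnar2, the receptor chain bound by Jak1, lies nearby on the same strand at chr16:91372783-91405589. It stood at 30.2 and 30.5 CPM in WT normal, 41.4 and 44.5 in WT starved, 32.8 and 33.2 in RA normal and 45.8 and 47.4 in RA starved. Starved libraries were above normal libraries in both genotypes, with ratios of 1.42 in WT and 1.41 in RA and log2 differences of 0.49 (SE 0.054) in each. The RA to WT ratio was 1.09 in both media, with no overlap between the genotypes. Its RA to WT difference under starvation, 0.12 (SE 0.054), was not called in the main fit and was called with total-read scaling, with edgeR and without WT starved replicate 2. Ifnar2 shares 315 exon bases with Gm21970 on the same strand, so its counts are uncertain to that extent.

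Jak1, the tyrosine kinase that starts phosphorylation at the receptor, lies on the minus strand at chr4:101152367-101265282. Its levels were 186 and 182 CPM in WT normal, 169 and 168 in WT starved, 194 and 189 in RA normal and 203 and 197 in RA starved. The groups did not overlap but lay close together. The RA to WT ratio was 1.04 in normal medium and 1.19 under starvation, and the starved to normal ratio was 0.914 in WT and 1.04 in RA.

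Stat2, the STAT protein particular to ISGF3, lies on the plus strand at chr10:128270559-128292849. It stood at 128 and 129 CPM in WT normal, 33.7 and 29.9 in WT starved, 218 and 212 in RA normal and 303 and 300.1 in RA starved. All RA libraries were above all WT libraries and starvation separated the genotypes further. The RA mean was 1.67 times the WT mean in normal medium and 9.47 times under starvation, log2 differences of 0.74 and 3.21 (SE 0.048 for each). The WT starved level was 0.248 times the WT normal level, and the RA starved level was 1.40 times the RA normal level. Its promoter was the only one of the 11 windows with an ISRE core match, the capitals in the Stat2 line above.

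Irf9, the DNA-binding partner of STAT2, lies on the plus strand at chr14:55603571-55610030. It stood at 78.8 and 81.3 CPM in WT normal, 31.4 and 30.7 in WT starved, 112 and 118 in RA normal and 147 and 149 in RA starved. The order of groups was the same as for Stat2, with no overlap. The RA to WT ratio was 1.43 in normal medium and 4.78 under starvation (log2 differences 0.51 and 2.22, SE 0.043). Starvation went with 0.388 times the normal level in WT and 1.29 times in RA. Irf9 shares 123 exon bases with Rnf31 on the same strand.

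Irf7, the interferon-inducible factor that acts on interferon genes, lies on the minus strand at chr7:141262706-141266481 and had the widest range of the 9. It stood at 34.7 and 34.4 CPM in WT normal, 5.20 and 6.03 in WT starved, 85.0 and 90.0 in RA normal and 211 and 198 in RA starved. No groups overlapped, and the lowest RA library was above the highest WT library. The RA mean was 2.53 times the WT mean in normal medium and 36.4 times under starvation, log2 differences of 1.32 and 4.96 (SE 0.061). The WT starved level was 0.162 times the WT normal level, and the RA starved level was 2.33 times the RA normal level.

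Irf1, a factor induced by interferon gamma and by several other stimuli, lies on the plus strand at chr11:53770014-53778374 and was ordered differently. It stood at 29.8 and 29.0 CPM in WT normal, 6.20 and 5.44 in WT starved, 40.9 and 38.8 in RA normal and 29.6 and 28.6 in RA starved. Both genotypes had lower values under starvation, with ratios of 0.198 in WT and 0.730 in RA, and the RA starved libraries overlapped those of WT normal. The RA to WT ratio was 1.36 in normal medium, a log2 difference of 0.43 (SE 0.071), and the log2 difference under starvation was 2.14. Irf1 shares 100 exon bases with Gm17334 on the opposite strand, and whether the counting used strand is not given in the sources used here.

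Irf3, the factor that starts the response, lies on the plus strand at chr7:44997648-45002848 and varied little. It stood at 22.6 and 24.1 CPM in WT normal, 18.5 and 19.9 in WT starved, 22.9 and 24.6 in RA normal and 23.7 and 22.5 in RA starved. The WT starved libraries were the lowest and the other groups overlapped each other. The RA to WT ratio was 1.02 in normal medium and 1.21 under starvation, and the starved to normal ratio was 0.820 in WT and 0.974 in RA.

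To compare levels between genes, CPM was divided by the exon length of each gene in kb, a description added after the data had been seen. Jak1 was the most abundant of the 9 in WT normal at 37.5 CPM per kb, followed by Stat2 at 29.2 and Irf9 at 25.8. In WT starved Jak1 at 34.3 was still highest, and the receptor chains (13.5 each) stood above Irf3 at 8.76, Stat2 at 7.24 and Irf7 at 2.35. In RA starved Irf7 at 85.4 and Stat2 at 68.5 CPM per kb stood above Irf9 at 47.8 and Jak1 at 40.7. Ifnb1 was the lowest in every group, at 0.977 CPM per kb in WT normal, 0.286 in WT starved, 2.90 in RA normal and 5.48 in RA starved.

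The summed level per kb of the 4 interferon regulatory factors was 59.7 in WT normal, 22.9 in WT starved, 96.4 in RA normal and 153 in RA starved. Irf7 made up 24.2% ± 0.51 (SD, n = 2) of that sum in WT normal, 10.3% ± 0.91 in WT starved, 38.0% ± 0.36 in RA normal and 56.0% ± 1.1 in RA starved. Irf3 made up 17.9%, 38.3%, 11.3% and 6.93% in the same order. The factor with the smallest share in WT normal, Irf1, held 14.8% there and 5.72% in RA starved, and Irf9 held between 31.4% and 43.8% in the 4 groups. The level of Irf3 itself was between 8.76 and 10.8 CPM per kb in the 4 groups.

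**Figure D2:**
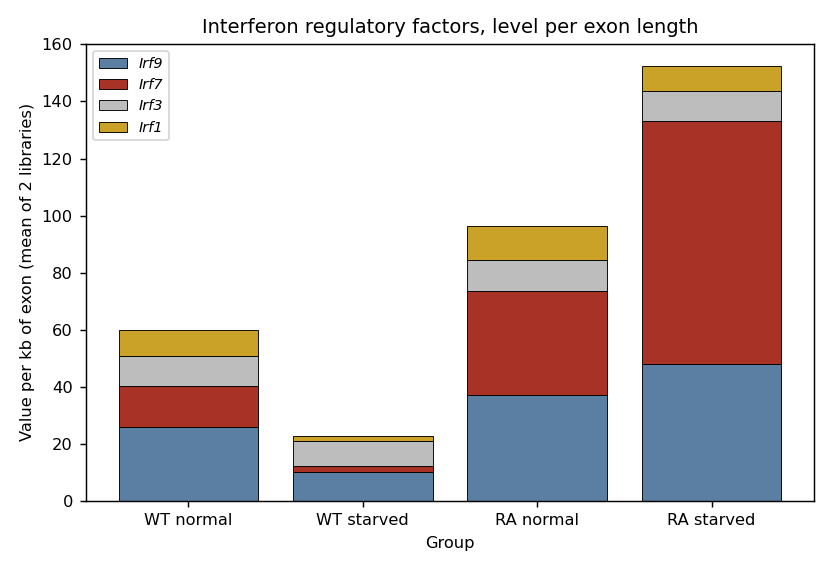
Level per exon length (mean CPM per kb of 2 libraries, y axis from 0, no error bars) of Irf9, Irf7, Irf3 and Irf1, stacked for each group. The stack is 22.9 high in WT starved and 153 in RA starved, where Irf7 is the largest layer.

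RA and WT MEFs were compared in each medium, a comparison in which the stable line and the Pontin form cannot be told apart. In normal medium 5 of the 9 genes were called higher in RA (Ifnb1, Stat2, Irf1, Irf7 and Irf9) and no member lower, by limma at an adjusted p under 0.05, beside 6.68% of all 16232 tested genes called higher and 2.95% called lower. The median log2 difference was 0.43 over the 9 and 0.01 over all tested genes. Of all genes called in normal medium, 69.4% were higher in RA as deposited and 40.4% with scaling to total reads. The same 5 of the 9 were called higher under that scaling. Under starvation 7 of the 9 were called higher in RA, all but the receptor chains, and no member lower, beside 30.8% and 32.1% of all tested genes. The median was 2.07 over the 9, the value of Ifnb1, or 2.28 with edgeR, and -0.01 over all tested genes. All 9 genes passed the filter on low values, but Ifnb1 passed only through RA libraries. The members were chosen with these contrasts known, so nothing is read from their counts.

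**Figure D3:**
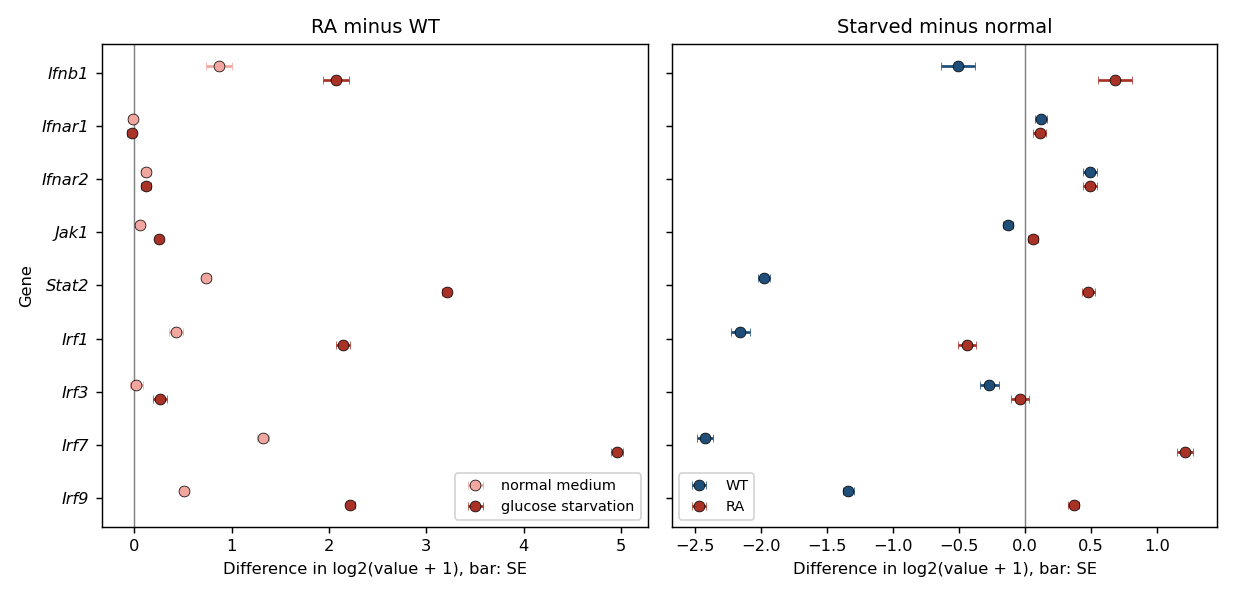
Differences in log2(CPM + 1) for the 9 interferon signalling genes, with SE as bars: RA minus WT in each medium (left) and starved minus normal in each genotype (right). RA minus WT reaches 4.96 for Irf7 under starvation, and the receptor chains lie at or near 0 on the left and above 0 for both genotypes on the right.

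Starved and normal medium were then compared within each genotype. In WT all 9 genes were called, 7 lower (Ifnb1, Jak1, Stat2, Irf1, Irf3, Irf7 and Irf9) and 2 higher (Ifnar1 and Ifnar2), beside 39.2% of all tested genes called lower and 39.3% called higher. In RA 5 were called higher (Ifnb1, Ifnar2, Stat2, Irf7 and Irf9) and 1 lower (Irf1), beside 35.0% and 33.7% of all tested genes. The median log2 difference of the 9 was -0.51 in WT and 0.37 in RA, with 0.00 and 0.01 over all tested genes. The WT median is the value of Ifnb1, which the added 1 shrinks, and with edgeR the median of the 9 in WT was -1.40. Ifnb1, Stat2, Irf7 and Irf9 were called lower under starvation in WT and higher in RA. Jak1 was lower in both starved WT libraries than in both normal ones. In RA the starved Jak1 libraries were above the normal ones by 0.06 on the log2 scale (SE 0.037), which was not called. The share of all tested genes with such opposite moves was not counted, so nothing is read from this pattern.

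The interaction, the RA response minus that of WT, was called positive for 6 of the 9 (all but Ifnar1, Ifnar2 and Irf3) and negative for no member, beside 24.5% and 26.1% of all tested genes. It was 3.64 (SE 0.086) for Irf7, 2.47 (SE 0.068) for Stat2, 1.72 (SE 0.10) for Irf1, 1.71 (SE 0.061) for Irf9 and 1.19 (SE 0.19) for Ifnb1 on the log2 scale. It was 0.19 (SE 0.052) for Jak1, 0.24 (SE 0.099) for Irf3, -0.02 (SE 0.067) for Ifnar1 and -0.00 (SE 0.077) for Ifnar2. The value of Ifnb1 was 2.70 with edgeR, 2.69 with DESeq2 and 2.28 with a pseudocount of 0.1, so its place below Irf9 rests on the added 1. The median over the 9, again the value of Ifnb1, was 1.19, or 1.77 with edgeR, and -0.01 over all tested genes. Irf3 was called in the interaction with total-read scaling, with edgeR, with the replicate block, and without WT starved replicate 2 or RA normal replicate 2.

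**Figure D4:**
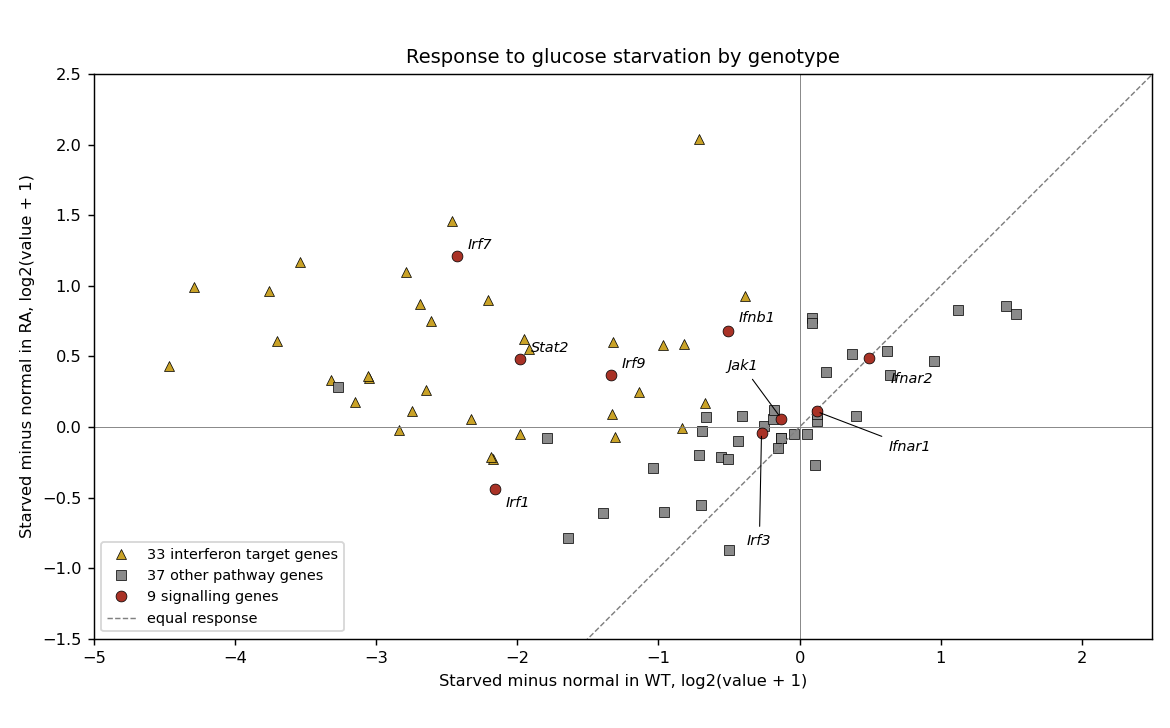
Starved minus normal in RA (y axis) against starved minus normal in WT (x axis), both as differences in log2(CPM + 1), for the 9 signalling genes (circles, named), 37 other pathway genes (squares) and 33 interferon target genes (triangles). Irf7 lies at -2.43 in WT and 1.21 in RA, and Ifnar2 lies on the dashed line of equal response at 0.49 in both.

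The other genes of the pathway were listed by role, 60 in all, of which 37 were tested. In normal medium 2 of the 37 were called higher in RA, Usp18 and Ifna4, beside 6.68% of all tested genes. Ifna4 was tested only because of its RA libraries. Pias3, an inhibitor of STAT proteins, was the 1 gene called lower (log2 difference -0.20, SE 0.060, limma adjusted p = 0.0489), beside 2.95% of all tested genes. These counts are near the background. Under starvation 19 were called higher in RA, Ifna4 among them, and 8 lower, beside 30.8% and 32.1% of all tested genes. In WT 10 rose under starvation and 20 fell, beside 39.3% and 39.2% of all tested genes. In RA 11 rose and 10 fell, beside 35.0% and 33.7%, which is near the background. The interaction was positive for 16 and negative for 8, beside 24.5% and 26.1%. The counts by role that follow are small and are to be read against the same shares. Genes given with values are those with the largest and the smallest RA to WT difference under starvation on each list, so their adjusted p-values are not independent of that choice. Over all 37 tested genes of these lists the median RA to WT log2 difference was 0.04 in normal medium and 0.19 under starvation.

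All 3 tested receptor chains of other cytokines of the interferon group (Ifngr1, Ifngr2 and Il10rb) were higher in RA under starvation. Ifngr2, a chain of the interferon gamma receptor, stood at 38.1 CPM in WT normal, 23.8 in WT starved, 40.8 in RA normal and 42.9 in RA starved, and its RA to WT difference under starvation was 0.83 (SE 0.066, limma adjusted p = 1.04e-08). For Ifngr1, its partner chain, the difference was 0.15 (SE 0.061, adjusted p = 0.0417). Ifngr2 fell under starvation in WT (-0.66, adjusted p = 7.41e-08), whereas Ifnar2 stood 0.49 higher there.

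Of the 3 other Janus kinases, 2 (Jak2 and Jak3) were higher in RA under starvation. Jak3, a kinase known from lymphocyte receptors, stood at 11.6 CPM in WT normal, 2.65 in WT starved, 9.45 in RA normal and 8.90 in RA starved (RA to WT 1.44 under starvation, SE 0.11, adjusted p = 4.35e-09). Tyk2, which sits on Ifnar1, stood at 14.9, 23.5, 15.8 and 23.4 CPM in that order, and its RA to WT difference under starvation was -0.00 (SE 0.074, adjusted p = 0.994). Tyk2 rose under starvation in WT (0.62, adjusted p = 7.64e-07) and in RA (0.54, adjusted p = 5.27e-06), whereas Jak1 had log2 differences of -0.13 and 0.06.

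Of the 5 other STAT genes, 3 (Stat3, Stat5a and Stat5b) were higher and 1 (Stat6) lower in RA under starvation. Stat3, which transmits signals of the interleukin-6 family, stood at 70.7 CPM in WT normal, 43.6 in WT starved, 69.8 in RA normal and 68.3 in RA starved (RA to WT 0.64 under starvation, SE 0.052, adjusted p = 1.56e-08). Stat6, which acts downstream of interleukin-4, was lower in RA under starvation (-0.39, SE 0.047, adjusted p = 1.81e-06). None of the 5 had a RA to WT difference under starvation as large as the 3.21 of Stat2, their range being -0.39 to 0.64.

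Of the 5 tested genes among other IRFs and IRF2-binding proteins, 2 (Irf2 and Irf5) were higher in RA under starvation and 1 (Irf2bp2) was lower. Irf2, often a repressor at IRF sites, fell under starvation in WT from 30.7 to 20.5 CPM and differed between genotypes there by 0.50 (SE 0.061, adjusted p = 2.23e-06). Irf2bp2, a corepressor bound to IRF2, rose in WT from 53.9 to 150.2 CPM and in RA from 50.7 to 92.5 CPM, and was lower in RA under starvation (-0.69, SE 0.050, adjusted p = 3.07e-09).

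Of the 9 genes that carry nucleic acid and Toll-like receptor signals to the IRFs, 4 were higher (Ikbke, Traf3, Mavs and Tmem173) and 3 lower (Tbk1, Traf6 and Ticam1) in RA under starvation, near the shares of all tested genes. Tmem173, which encodes STING, the adaptor of cytosolic DNA sensing, stood at 30.2 CPM in WT normal, 14.2 in WT starved, 33.7 in RA normal and 27.4 in RA starved (RA to WT 0.90 under starvation, SE 0.068, adjusted p = 5.93e-09). Ticam1, which encodes the adaptor TRIF, stood at 19.6, 58.6, 19.7 and 35.1 CPM in that order, and was lower in RA under starvation (-0.73, SE 0.071, adjusted p = 1.46e-07). Tmem173 fell and Ticam1 rose under starvation in both genotypes, each past the threshold of the test.

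Of 11 genes that restrain the pathway, 4 were higher (Socs1, Socs3, Usp18 and Ptpn2) and 3 lower (Ptpn1, Pias2 and Pias4) in RA under starvation. Usp18, an interferon-induced protease that binds Ifnar2 and dampens signalling, stood at 96.1 CPM in WT normal, 9.04 in WT starved, 236 in RA normal and 288 in RA starved, with RA to WT differences of 1.29 in normal medium (SE 0.040, adjusted p = 8.15e-13) and 4.85 under starvation (SE 0.040, adjusted p = 5.53e-22). Pias4, a SUMO ligase that inhibits STAT proteins, was lower in RA under starvation (-0.57, SE 0.055, adjusted p = 1.07e-07), having risen under starvation to 58.9 CPM in WT and to 39.3 CPM in RA. Usp18 was ordered over the groups like Irf7, with RA starved highest and WT starved lowest.

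A list of 33 interferon target genes, written with earlier results of these data known and so no independent evidence of direction, was all tested. In RA against WT 33 of 33 were higher in normal medium and 33 of 33 under starvation, with median log2 differences of 1.11 and 3.74. Of all tested genes 6.68% and 30.8% were called higher in RA there. In WT 33 of 33 fell under starvation, and in RA 24 rose, 2 (Parp9 and Eif2ak2) fell and 7 did not pass the test. The shares of all tested genes were 39.2% lower in WT, and 35.0% higher and 33.7% lower in RA. Ifit3, an antiviral protein of the IFIT family, stood at 82.7 CPM in WT normal, 3.29 in WT starved, 332 in RA normal and 662 in RA starved, a difference of 7.27 under starvation (SE 0.041) and the largest of the list, by which it was named. Adar, an RNA-editing enzyme with an interferon-inducible form, had the smallest difference of the list there, 1.36 (SE 0.040). The RA to WT differences of Irf7 (4.96), Stat2 (3.21), Irf9 (2.22), Irf1 (2.14) and Ifnb1 (2.07) under starvation lie inside the range of the targets, and those of the receptor chains, Jak1 and Irf3 lie below it.

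For the 5 members whose group means spanned at least 1 on the log2 scale, the genes with the most alike profile were sought among 10497 or 10498 tested genes with a mean of at least 10 CPM. Likeness was the Euclidean distance between centred log2(CPM + 1) profiles over the 8 libraries, in which the group pattern is shared by construction. The added 1 compresses Ifnb1 and hardly compresses genes above 10 CPM, so its neighbours depend on it: under starvation RA was 19.2 times WT for Ifnb1 and 4.59 times for H2-T22. Nearest to Ifnb1 were H2-T22 (distance 0.215), Plscr2 (0.402) and Ifi35 (0.42). Nearest to Stat2 were Oas1b (0.203), Trim34a (0.378) and Prl2c2 (0.48). For Irf7 they were Phf11d (0.312), Gm12185 (0.408) and Ddx60 (0.418), of which Gm12185 shares 223 exon bases with Tgtp1 on the same strand. The nearest to Irf9 were Tinagl1 (0.331), Tapbp (0.342) and Timp2 (0.359). Irf1 had other neighbours, Sdc3 (0.234), Prss23os (0.236) and Gm26716 (0.272), which like Irf1 stood highest in RA normal. Sdc3 and Gm26716 share 415 exon bases on opposite strands, and Prss23os shares 864 with Prss23 on the opposite strand. Without strand, reads of such shared bases cannot be told apart. Opposite-strand overlaps were also found for Tapbp (682 bases with Gm19412) and Trim34a (609 with Gm47248). The others were Ifi35 (237 with Gm11626) and H2-T22 (29 with A930015D03Rik). None of the 15 was itself one of the 9, and 1 of them, Ifi35, was on the list of targets.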

How the data were processed

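RNA was polyA-selected, made into libraries with the TruSeq v2 kit and sequenced as paired ends. The submitters' processing notes name TopHat2 (version 2.0.9), bedtools, edgeR and the mm9 genome. The gene annotation, strand handling and filters are not given in the sources used here. The authors deposited a table of 49492 rows whose values are a signal, read counts in CPM of a library size they scaled per sample. Its columns, named minus and plus, were taken as without and with starvation, the way the study marks its conditions. Column sums ran from 965845 to 1029723. Whole reads were recovered for 100% of nonzero values within 0.05 reads. Of the rows, 18085 were at 0 throughout and 26 had names turned into dates. Between 78.2% and 80.5% of counts from 1 to 9 were even. The level of 3 reads covers counting error only, while SDs and SEs measure the spread between libraries.

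Genes with at least 1 CPM in at least 2 samples (16232) were fitted with limma (3.58.1, R 4.3.3) on log2(CPM + 1), with 1 mean for each group, all 8 samples, a mean-variance trend, 2-sided tests and Benjamini-Hochberg adjustment over all tested genes, called at an adjusted p under 0.05. The planned unit was CPM of plain totals, and the same test was used. Alternatives were the pseudocount, filter and scaling, the replicate block, leaving out each sample, a 2-fold limit, and edgeR (4.0.16) and DESeq2 (1.42.0) on recovered reads. The limma and edgeR fits, but not DESeq2, were tried on simulated counts. Those had changes in RA starved only, in far fewer genes than were called here, so nothing is read from that trial. Replicates differed beyond sampling noise (mean chi-square per gene 3.33 to 14.6). The members and lists were chosen with earlier results of these data known. Named genes were the members, Ruvbl1, the tested genes with the largest and the smallest RA minus WT difference under starvation on each list, and the 3 genes nearest in profile to each member spanning at least 1 on the log2 scale. Other list genes named beside a count, such as Pias3, were named after their values were seen. The AANNGAAA motif and the levels per length were added after the data had been seen. Gene positions and exon lengths are from GENCODE M21 and promoters from RefSeq, both on GRCm38, which is not the build of the mapping.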

Additional observations from a re-analysis of the deposited data

Results flagged for a closer look

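For several genes both WT libraries moved one way under starvation and both RA libraries the other way. Among the members the RA response minus the WT response was 1.19 for Ifnb1, 0.19 for Jak1, 2.47 for Stat2, 3.64 for Irf7 and 1.71 for Irf9 on the log2 scale. The same held for genes chosen for a profile like a member's, with 1.31 for H2-T22, 1.65 for Plscr2, 1.42 for Ifi35, 2.58 for Oas1b, 2.46 for Trim34a, 1.88 for Prl2c2, 3.71 for Phf11d, 3.36 for Gm12185, 3.36 for Ddx60, 1.72 for Tinagl1, 1.32 for Tapbp and 1.58 for Timp2. These 17 genes were chosen with or for this pattern, so their interaction calls in the fit are a description and no independent evidence. For Jak1 the RA response alone was 0.06 (SE 0.037) and was not called. The share of all tested genes with such opposite moves was not counted.

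For 10 named genes of the pathway lists and for the targets Ifit3 and Adar the interaction was past the threshold of limma, beside 24.5% of all tested genes called positive and 26.1% called negative. These genes were named for the size of their RA minus WT difference under starvation, which is a part of the interaction, so the values are a description and no independent evidence. The response in RA less that in WT was positive for Ifngr2 (0.73), Jak3 (1.71), Stat3 (0.66), Irf2 (0.35), Tmem173 (0.74), Usp18 (3.56), Ifit3 (5.28) and Adar (0.84). It was negative for Stat6 (-0.38), Irf2bp2 (-0.61), Ticam1 (-0.73) and Pias4 (-0.48). Groups of 2 libraries are too small for a test of single outlying libraries.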

How the results depend on the processing

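Over 720 recomputed differences of the members, 628 moved by less than the spread between replicates, 92 moved further and 0 changed sign after a call. Many of the 628 were fixed by construction, so their number does not measure robustness. Dropping the filter or adding the replicate block cannot change a difference between group means here. Leaving out 1 library cannot move a difference between a pair of groups past that spread. The largest moves were those of Ifnb1, whose level is low. Genes called between genotypes in normal medium numbered 1563, but 650 with no filter, 82 when a 2-fold change was also required, and 559 to 1704 when 1 library was left out (559 without WT normal replicate 1, 832 without WT normal replicate 2, 933 without RA normal replicate 2). With the 2-fold limit the other contrasts called 1088 genes (RA minus WT under starvation, from 10211), 3179 (WT response, from 12756), 1465 (RA response, from 11157) and 990 (interaction, from 8207). The members called then fell to 1 in normal medium, 4 in the WT response and 1 in the RA response. The other pathway genes called then were 1 in normal medium, 3 under starvation, 8 and 0 in the WT and RA responses and 2 in the interaction, and 4 targets were called in the RA response. For RA minus WT in normal medium, 3 of the other pathway genes were called, 1 with DESeq2 and 1 to 3 with 1 library left out (1 without WT normal replicate 1 or RA starved replicate 1). A fall under the 2-fold limit follows from its construction, and the cause of the other changes was not tested. edgeR on recovered reads called 1555, 10194, 12705, 11114 and 8096 genes in the 5 contrasts. With the replicate block 2059, 10494, 12922, 11406 and 8578 genes were called, and 5, 7, 9, 6 and 7 members. Samples with the same number deviated together with correlations of -0.008 to 0.157, so the numbers were not taken as pairs.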
